A study of Mus musculus with 4 samples.

Results

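Dusp1, Dusp3, Dusp4, Dusp5, Dusp6, Dusp7, Dusp8 and Dusp14 encode dual-specificity MAP kinase phosphatases. They were taken as a fixed list of 8 gene names, which was chosen with earlier results of these data known. These names were looked up among the 18386 genes counted by whole transcriptome sequencing of mouse cortex. The deposited gene names vary in letter case and leave the Dusp7 transcript unnamed, so the 14 transcripts of the 8 genes were found by their Ensembl identifiers in GENCODE M21 (GRCm38), and their read counts were summed per gene. All 8 genes were measured, and none was lost to a filter on low counts. Each library was made from the cortex of 1 mouse, and all mice were males of 12 months: 2 carried APPswe/PS1ΔE9 (APP) and 2 were wild type (WT). The labels give the background of both groups as C57BL/6, and the study's methods name the WT mice as C57BL/6J. APPswe/PS1ΔE9 mice are a double transgenic model of Alzheimer's disease that carries human APP with the Swedish mutation and human PS1 lacking exon 9. The promoter of the transgenes is not given in the sources used here. Nothing further was applied to either group, and the mice of both were anesthetized and killed by cervical dislocation before dissection.

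MAP kinases such as ERK, JNK and p38 are switched on when a threonine and a tyrosine in their activation loop are phosphorylated, and dual-specificity phosphatases switch them off by removing both phosphates. Several of these phosphatases are themselves transcribed in response to MAP kinase signalling, so that they act as negative feedback, and in neurons some are induced by synaptic activity. They differ in where they act and on what: Dusp1, Dusp4 and Dusp5 are nuclear and inducible, Dusp6 and Dusp7 are cytoplasmic and prefer ERK, Dusp8 prefers JNK and p38, and Dusp3 and Dusp14 are small atypical enzymes that lack the kinase-binding domain of the others.

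All 8 phosphatases were lower in APP than in WT cortex, with the highest APP library below the lowest WT library for each of them. Lower, non-overlapping APP values were seen for 21.4% of all genes tested. In size, the differences ran from a log2 fold change (APP over WT) of -0.59 for Dusp1 to -0.12 for Dusp3, with a median of -0.48, against a median of -0.001 over all genes. An unadjusted p under 0.05 in this direction (quasi-likelihood test of edgeR) was found for 7 of the 8, and for 4.78% of all genes. After Benjamini-Hochberg adjustment over all genes, 2 of the 8, Dusp1 and Dusp6, were under 0.05, as were 0.12% of all genes. A gene was called where it also changed by at least 1.5-fold. Dusp1 alone met this, among the 7 genes called lower in APP, which were 0.0381% of all genes. As the 8 genes were chosen with earlier results of these data known, their counts beside these shares describe them and test nothing. In bulk tissue, fewer cells that express a gene and less RNA per cell cannot be told apart. No exact two-sided permutation test of 2 mice against 2 can reach a p below 0.333, and edgeR gets lower ones by sharing an estimate of the spread across genes.

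**Figure D1:**
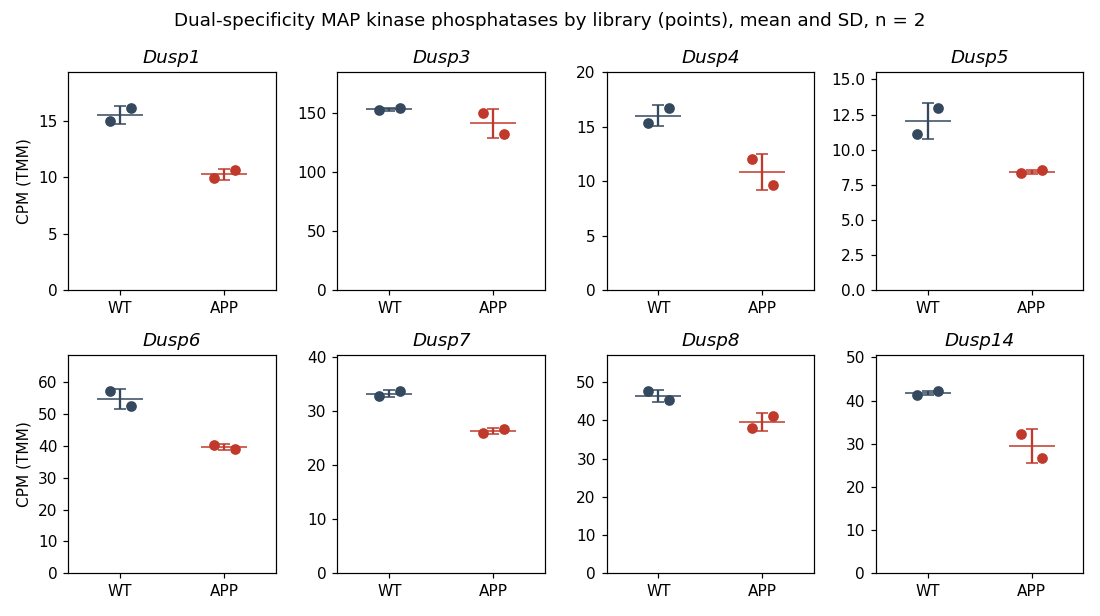
Level of each of the 8 phosphatases in CPM (reads scaled to a common library size by TMM) in each library, where points are libraries, horizontal bars are means and error bars are SDs of 2 libraries, and every axis starts at 0. Both APP points lie below both WT points in every panel, by a wide margin for Dusp1 (9.93 and 10.6 against 15.0 and 16.1) and a narrow one for Dusp3 (150 and 132 against 152 and 154).

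The libraries held between 28525117 and 43881196 counts, and both WT libraries were deeper than both APP libraries. Markers of the tissue's other cells moved with genotype. Over all 18386 genes, 155 were called higher in APP. The 6 oligodendrocyte markers summed to 1548 to 1759 CPM in APP and 1147 to 1271 CPM in WT, with 1 of 6 called higher. The 6 microglial markers summed to 319 to 384 CPM in APP and 204 to 208 CPM in WT, with 3 of 6 called higher. Astrocyte markers had 2 of 6 called higher, at 4176 to 4526 CPM in APP and 3360 to 3727 CPM in WT. The 6 markers of cortical excitatory neurons, among them Slc17a7 and Camk2a, were present in every library and summed to 1174 CPM in each APP library and to 1276 to 1346 CPM in WT. All 6 were lower in sign (median log2 fold change -0.20), and 0 were called by edgeR or DESeq2. By edgeR, 4 were lower at an unadjusted p under 0.05, as were 4.78% of all genes. For the 6 interneuron markers the median was -0.13, for the 5 endothelial markers -0.01 and for the 4 thalamic markers 0.39. By edgeR, 2 interneuron markers, Pvalb (-0.54) and Vip (-0.33), were lower at an unadjusted p under 0.05, as were 4.78% of all genes. In sign, 5 of the 6 were lower and 1 was higher. At that p, 3 thalamic markers were higher, as were 1354 of all 18386 genes. The 6 striatal markers were uneven within the APP group, at 134 CPM in APP-3 and 293 CPM in APP-4, with WT at 197 and 219 CPM. The 4 measured hypothalamic markers summed to 3.62 and 5.59 CPM in APP and to at most 0.25 CPM in WT, and 2 of them were called higher. The part of these shifts in the values of the phosphatases was not tested.

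Dusp1, Dusp4 and Dusp5, which are nuclear and inducible, had the 3 largest log2 fold changes of the 8, but the order was close. Dusp5 stood at -0.51 (SE 0.13) and the atypical Dusp14 at -0.50 (SE 0.10), so these 2 were not resolved. The promoters are of interest because Dusp1 and Dusp5 are known as genes whose transcription follows CREB and serum response factor. The windows of RefSeq promoters (GRCm38.p6) covered 250 bases before the start site and 50 from it on, and an entry was found for 7 of the 8 genes, all but Dusp4. The sequences shown are of the 3 windows with a match to a cAMP response element (CRE), its half-site or a CArG box, the site bound by serum response factor. Each is read 5′ to 3′ on the gene's own strand and stops before the counted transcript, and capitals mark the matches on either strand. Dusp1 is shown for chr17:26508520-26508722 (minus strand), Dusp5 for chr19:53528895-53529108 (plus strand) and Dusp8 for chr7:142095285-142095534 (minus strand).
Dusp1: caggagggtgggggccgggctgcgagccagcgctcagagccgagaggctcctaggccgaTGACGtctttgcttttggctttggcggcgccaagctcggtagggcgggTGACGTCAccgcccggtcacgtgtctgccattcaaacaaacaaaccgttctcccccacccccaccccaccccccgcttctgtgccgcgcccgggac
Dusp5: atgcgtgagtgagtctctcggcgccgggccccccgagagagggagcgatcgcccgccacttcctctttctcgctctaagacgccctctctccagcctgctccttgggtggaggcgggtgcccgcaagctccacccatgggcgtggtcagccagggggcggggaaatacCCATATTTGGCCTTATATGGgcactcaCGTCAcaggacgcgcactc
Dusp8: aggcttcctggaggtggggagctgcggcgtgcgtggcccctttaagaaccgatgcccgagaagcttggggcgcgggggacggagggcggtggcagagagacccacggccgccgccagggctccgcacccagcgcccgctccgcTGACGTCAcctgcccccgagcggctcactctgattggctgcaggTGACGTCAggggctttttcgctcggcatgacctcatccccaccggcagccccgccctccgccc

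The full CRE, TGACGTCA, was in the windows of Dusp1 and Dusp8, 2 of the 7 genes, and in 1.79% of all 32851 windows. It began at -143 in Dusp1 and at -107 and -63 in Dusp8, with -1 as the base just before the RefSeq start site. The sequences printed for Dusp1 (203 bases) and Dusp5 (214 bases) stop short of that site, and positions are not counted from their ends. The half-site TGACG, which lies within the full CRE and was searched on both strands, was in 3 of the 7 windows and in 20.8% of all. Outside a full CRE it was found at -191 in Dusp1 and at -55 in Dusp5. Dusp5 held 2 CArG boxes side by side, beginning at -82 and -72, and 1.63% of all windows held at least 1. The AP-1 site TGANTCA (7.81% of all windows) and the TATA box TATAAA (13.6% of all windows) were in none of the 7. The 2 genes with a full CRE had log2 fold changes of -0.59 (Dusp1) and -0.23 (Dusp8). Whether any of these sites bears on the fold changes was not tested.

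Dusp1 (MKP-1) is an immediate-early gene whose product dephosphorylates p38, JNK and ERK. It was counted at 9.93 CPM (APP-3) and 10.6 CPM (APP-4) against 15.0 CPM (WT-1) and 16.1 CPM (WT-2), from 288, 329, 657 and 571 reads. Both APP libraries lay well under both WT libraries, and the highest APP value was 29.0% below the lowest WT value, the widest such gap among the 8 genes. The means were 10.3 ± 0.492 CPM in APP and 15.5 ± 0.818 CPM in WT (SD, n = 2), so APP stood at 66.2% of WT. The log2 fold change was -0.59 (SE 0.11, 95% interval -0.84 to -0.35), with an adjusted p of 0.0404 by edgeR's quasi-likelihood test. Dusp1 fell past both cut-offs, but only just past the fold of 1.5. The call was lost when a library was left out, except APP-4. Without APP-3 the log2 fold change was -0.55, under the fold cut-off, and without WT-1 or WT-2 the adjusted p was 0.133 and 0.342.

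Reads were counted on 3 transcripts of Dusp1. The coding transcript Dusp1-202 (chr17:26505590-26508519, minus strand, 4 exons) took 94.5% of them, and on its own it had a log2 fold change of -0.55 with an adjusted p of 0.033 in a fit over transcripts, which left it under the fold cut-off. The others are retained-intron forms, which keep an intron that is removed from the coding mRNA. Dusp1-203 had 5 and 4 reads in APP-3 and APP-4 and 25 and 15 in WT-1 and WT-2. Its APP libraries were lower, with a log2 fold change of -1.71, and the adjusted p was 0.260 in the same edgeR fit. Dusp1-204 had 9 and 6 reads in APP and 17 and 21 in WT (log2 fold change -0.94, adjusted p 0.651). Neither retained-intron form passed the test, and at these depths of 25 reads or fewer the fold changes are imprecise.

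Dusp4 (MKP-2) is a nuclear phosphatase of ERK, JNK and p38, encoded at chr8:34807297-34819894 on the plus strand in 4 exons. It was counted at 12.0 CPM (APP-3) and 9.69 CPM (APP-4) against 15.3 CPM (WT-1) and 16.7 CPM (WT-2), from 349, 300, 674 and 592 reads. APP-4 was the lowest of the 4 libraries, and the groups were apart by 21.6% of the lowest WT value. The log2 fold change was -0.56 (SE 0.13, interval -0.85 to -0.27) with an adjusted p of 0.0942 by the quasi-likelihood test, which did not pass. Under the alternatives that kept all libraries the adjusted p ran from 0.0079 to 0.109, and it was under 0.05 in edgeR's exact (0.00844) and likelihood ratio tests. The 2 APP libraries differed by -0.31 on the log2 scale (APP-4 minus APP-3), the largest difference between APP libraries among the 8 genes.

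Dusp5 is a nuclear phosphatase that acts on ERK alone, encoded at chr19:53529109-53542431 on the plus strand in 4 exons. It had the fewest reads of the 8 genes, 241 and 264 in APP-3 and APP-4 and 489 and 459 in WT-1 and WT-2. These gave 8.31 and 8.52 CPM in APP against 11.1 and 12.9 CPM in WT. The APP libraries were close to each other and both below WT, whose libraries were further apart. The log2 fold change was -0.51 (SE 0.13, interval -0.80 to -0.23) with an adjusted p of 0.125 by the quasi-likelihood test, which did not pass. The exact and likelihood ratio tests of edgeR gave 0.0336 and 0.0315, and DESeq2 gave 0.162.

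Dusp6 (MKP-3) and Dusp7 (MKP-X) are the cytoplasmic phosphatases of ERK, and Dusp6 is a widely used readout of ERK signalling. Dusp6 (chr10:99263231-99267488, plus strand, 3 exons) was counted at 40.3 CPM (APP-3) and 39.0 CPM (APP-4) against 57.0 CPM (WT-1) and 52.4 CPM (WT-2), from 1170, 1209, 2503 and 1859 reads. The APP libraries agreed closely, and the higher of them was 23.1% below the lower WT library. The means were 39.7 ± 0.915 CPM in APP and 54.7 ± 3.19 CPM in WT (SD, n = 2), or 72.5% of WT. With a log2 fold change of -0.46 (SE 0.07, interval -0.63 to -0.30), Dusp6 had the smallest p of the 8 genes and an adjusted p of 0.0255 by edgeR's quasi-likelihood test. It was past the cut-off on p and not past the 1.5-fold cut-off. The pass on p was lost without WT-1 (adjusted p 0.154) and without WT-2 (adjusted p 0.0504).

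Dusp7 (chr9:106368632-106375724, plus strand, 3 exons) was counted at 26.0 and 26.7 CPM in APP-3 and APP-4 and at 32.7 and 33.7 CPM in WT-1 and WT-2. The libraries of each group differed by only 0.04 on the log2 scale, and the groups were 18.4% apart. The log2 fold change was -0.33 (SE 0.07, interval -0.50 to -0.16), and the adjusted p of 0.0924 by the quasi-likelihood test did not pass. The exact and likelihood ratio tests of edgeR put it at 0.021 and 0.0196, and DESeq2 at 0.155. Dusp8 (chr7:142079490-142095272, minus strand, 7 exons), a brain-enriched phosphatase of JNK and p38, was counted at 37.9 and 41.2 CPM in APP and 47.6 and 45.3 CPM in WT. Its groups were 9.06% apart, and the log2 fold change of -0.23 (interval -0.40 to -0.06) had an adjusted p of 0.246.

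Dusp14 (MKP-6, chr11:84048041-84068801, minus strand, 4 exons in its main transcript) is an atypical phosphatase known for dampening signalling from the T cell receptor and from MAP kinases. It was counted at 32.3 CPM (APP-3) and 26.8 CPM (APP-4) against 41.4 CPM (WT-1) and 42.1 CPM (WT-2), from 936, 829, 1820 and 1493 reads. The WT libraries were nearly equal and the APP libraries were spread, with APP-4 the lowest. The log2 fold change was -0.50 (SE 0.10, interval -0.72 to -0.28) with an adjusted p of 0.0518 by edgeR's quasi-likelihood test, just outside the cut-off. DESeq2 gave Dusp14 an adjusted p of 0.00422, and the range over the alternatives that kept all libraries was 0.000533 to 0.0648.

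Dusp3 (VHR, chr11:101971143-101984799, minus strand, 3 exons in its main transcript), an atypical phosphatase of ERK and JNK had the smallest difference of the 8. It was counted at 150 CPM (APP-3) and 132 CPM (APP-4) against 152 CPM (WT-1) and 154 CPM (WT-2), from 4342, 4101, 6679 and 5453 reads. APP-3 lay only 1.53% below WT-1, and most of the difference came from APP-4. The log2 fold change was -0.12 (SE 0.07, interval -0.29 to 0.05), with an unadjusted p of 0.153 in edgeR and an adjusted p of 0.595. Without APP-3 it was -0.21 with an adjusted p of 0.0227, and without APP-4 it was -0.03 with an adjusted p of 0.872. The interval over all 4 libraries leaves out a fall as large as the 1.5-fold cut-off.

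**Figure D2:**
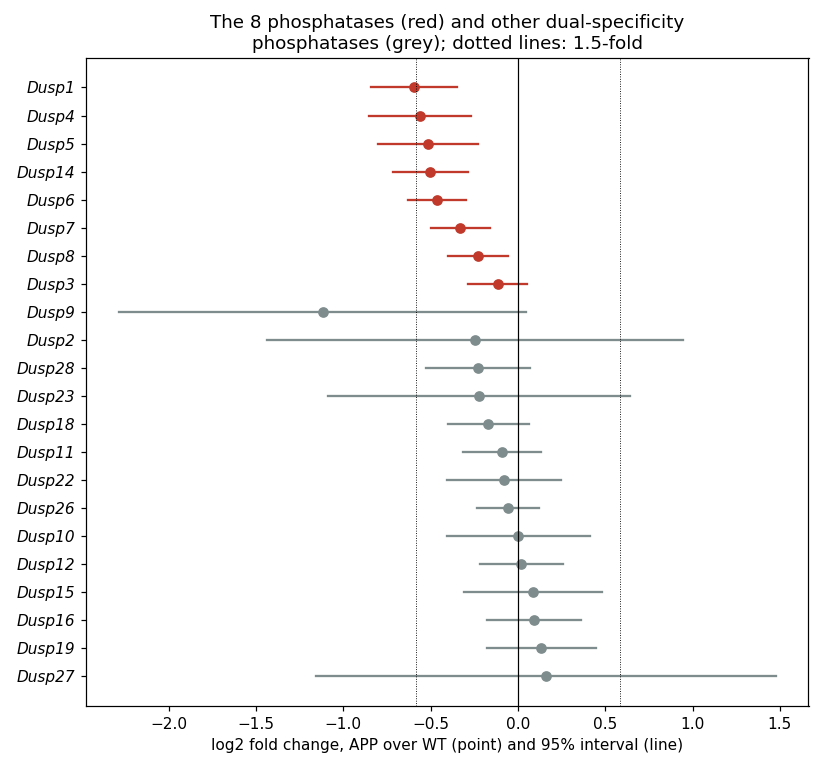
Log2 fold change of APP over WT (points) with its 95% interval (lines) for the 8 phosphatases (red) and for the other dual-specificity phosphatases measured (grey), with dotted lines at a fold of 1.5. The red intervals lie below 0 for all but Dusp3, and the grey intervals all include 0.

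The APP libraries differed from each other in a way that split the 8 genes. Dusp4, Dusp14 and Dusp3 were lower in APP-4 than in APP-3, by -0.31, -0.27 and -0.18 on the log2 scale, whereas Dusp8 and Dusp1 were higher in APP-4, by 0.12 and 0.10. Dusp5, Dusp6 and Dusp7 differed by less than 0.05. APP-4 is also the library with the higher striatal markers (293 against 134 CPM), and the part of this in the split was not tested. Leaving out APP-3 brought Dusp4 (log2 fold change -0.72, adjusted p 9.01e-05) and Dusp14 (-0.64, 1.92e-06) past both cut-offs by edgeR, with the lone APP library assumed to vary as the WT libraries do.

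The profile over the 4 libraries, as log2 CPM centred on each gene's own mean, was most alike for Dusp4 and Dusp14, with a root mean square difference of 0.048, followed by Dusp1 and Dusp5 (0.061) and by Dusp7 and Dusp8 (0.0693). Dusp1 and Dusp3 were the least alike (0.258). Among the 14666 genes with a mean of at least 1 CPM, the gene nearest to Dusp6 was Vegfa (0.0154), followed by Sowahb and Gm10226. Pstpip2 (0.00446) and the neuropeptide precursor gene Vgf (0.00576) were nearest to Dusp7, and then Gcnt2. Atp2b2, a plasma membrane calcium pump, was nearest to Dusp8 (0.00611), with Gm10118 and LTO1 next. Ubtd2 was nearest to both Dusp14 (0.0126) and Dusp4 (0.0424), and for Dusp4 the second gene was Dusp14 itself and the third Ccnf. Clec11a and Dnajc21 came next to Dusp14. The nearest to Dusp1 were 1110002E22Rik (0.0348), Agmat and AI115009, and to Dusp5 they were AI115009 (0.0325), Gm4876 and Tfeb. Dusp3 had Ptpn3 (0.00228), Brms1l and Sccpdh. Over only 4 libraries many genes come close to any profile, so these are neighbours by value alone.

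Levels can be compared between genes only per length, here as CPM per kilobase. Each transcript's CPM was divided by its own length, and these values were summed per gene. In WT the order was Dusp3 (37.4 CPM per kilobase), Dusp14 (26.8), Dusp6 (19.6), Dusp7 (10.3), Dusp8 (9.67), Dusp1 (8.11), Dusp4 (5.85) and Dusp5 (4.87). In WT each gene's 2 libraries lay above both libraries of the next gene in the order. In APP the order was Dusp3 (34.7), Dusp14 (19.0), Dusp6 (14.2), Dusp8 (8.24), Dusp7 (8.21), Dusp1 (5.33), Dusp4 (3.96) and Dusp5 (3.40). Dusp7 (8.10 and 8.32) and Dusp8 (7.90 and 8.58) overlapped in APP, so their order there was not resolved. The summed CPM of the 8 genes was 316 and 295 in APP and 372 and 373 in WT.

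**Figure D3:**
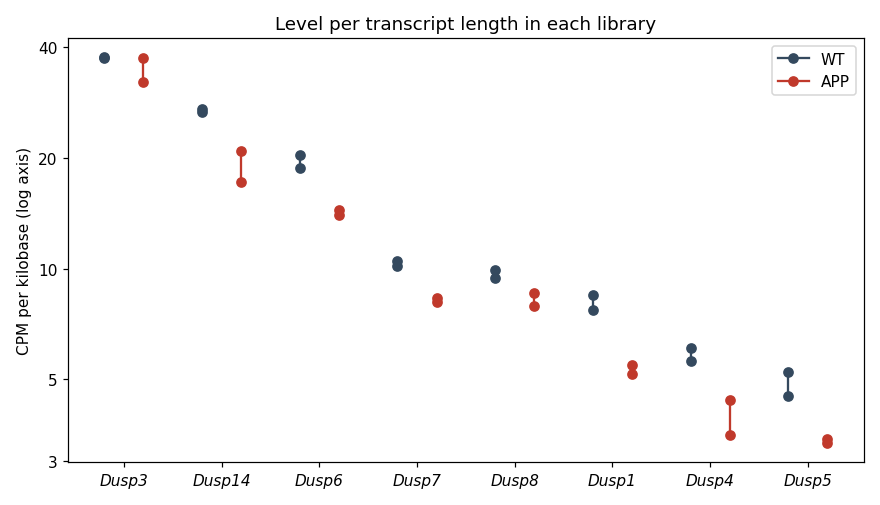
Level in CPM per kilobase, summed over the counted transcripts of each gene, on a log axis for the 8 phosphatases, ordered by WT level. There is 1 point per library and a line joining the 2 libraries of a group. Dusp3 stands highest at 37.4 in WT and Dusp5 lowest at 4.87, and Dusp7 and Dusp8 overlap in APP.

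The 4 other MAP kinase phosphatases were mixed in direction, with 2 lower in sign. For Dusp2, Dusp9, Dusp10 and Dusp16, edgeR gave 0 with an unadjusted p under 0.05, and 0 were called by any of its 3 tests or by DESeq2. Dusp16, a phosphatase of JNK, was at 10.2 and 10.8 CPM in APP and 10.3 and 9.42 in WT, with a log2 difference of 0.09 (interval -0.18 to 0.36). Dusp10, which acts on p38 and JNK, was at 4.83 and 4.04 CPM in APP and 3.98 and 4.88 in WT, with overlapping groups. Dusp9 stood at -1.12 (adjusted p 0.433) and Dusp2 at -0.24 (adjusted p 0.912) on the log2 scale, both at about 1 CPM or less. Of the other atypical dual-specificity phosphatases, 10 of 14 listed were measured, and again 0 had an unadjusted p under 0.05 or were called by any of the tools. The median was -0.07. Their extremes were Dusp28 at -0.23 and Dusp27 at 0.16, and Dusp18 was at -0.17 and Dusp19 at 0.13. The difference in fold change between the 8 genes and these was not tested.

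The MAP kinases are the substrates of the phosphatases. Of 14 MAP kinase genes, 0 were called by the quasi-likelihood test or DESeq2 and 3 had an unadjusted p under 0.05. Of these, 2 were lower in APP, as were 4.78% of all genes at that p. In sign 11 were lower, and the median was -0.10 on the log2 scale. By edgeR, Mapk6 (ERK3) stood at -0.28 (adjusted p 0.113) and Nlk at -0.29 (adjusted p 0.127) on the same scale. Mapk15 had a log2 fold change of 2.78 from levels under 1 CPM in every library (adjusted p 0.234), and it was the 1 gene called by edgeR's exact and likelihood ratio tests. Of the 7 MAP kinase kinases 0 were called by edgeR or DESeq2, and the median was -0.05. Of these Map2k4, an activator of JNK, had the smallest p and the only unadjusted one under 0.05 (log2 fold change -0.17, adjusted p 0.307), followed by Map2k6 at -0.16 and Map2k3 at -0.20. Upstream, the 6 Ras and Raf genes had a median of 0.02 and 0 were called by edgeR or DESeq2 or had an unadjusted p under 0.05, with Araf at 0.12, Hras at -0.11 and Braf at -0.07. The tyrosine phosphatases of MAP kinases, Ptpn5 (STEP), Ptpn7 and Ptprr, had log2 fold changes of -0.11, 0.52 and 0.05. By edgeR and by DESeq2 0 of them were called, and 0 had an unadjusted p under 0.05.

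The Sprouty and Spred genes encode the other main group of feedback inhibitors of the Ras and ERK pathway. None of the 7 was called by edgeR or DESeq2. By edgeR, 3 had an unadjusted p under 0.05, all lower in APP, as were 4.78% of all genes. Spred1 was at 320 and 315 CPM in APP and 388 and 386 CPM in WT (log2 fold change -0.29, adjusted p 0.0769). Its libraries were nearly equal within each group and well apart between groups. Spred2 stood at -0.27 (adjusted p 0.164) and Spry4 at -0.33 (adjusted p 0.322), and the median of the 7 was -0.18.

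The immediate-early genes are transcribed within minutes of neuronal activity, partly through ERK. All 18 listed were lower in sign in APP, against 9241 of all 18386 genes. Their median log2 fold change was -0.39, close to that of the phosphatases. Within APP the lists differed. The immediate-early genes summed to 476 CPM in APP-3 and 597 CPM in APP-4, against 743 and 761 CPM in WT-1 and WT-2. The phosphatases summed to 316 CPM in APP-3 and 295 CPM in APP-4. The groups did not overlap for 14 of the 18, against 21.4% of all genes in this direction. By edgeR, 11 had an unadjusted p under 0.05 (4.78% of all genes in this direction), and 1 was called lower (0.0381% of all genes). That gene was Arc, whose product regulates glutamate receptors at synapses, at 101 and 147 CPM in APP and 213 and 226 CPM in WT (log2 fold change -0.83, adjusted p 0.0376 by edgeR). Egr1, an activity-dependent transcription factor, was at 86.3 and 105 CPM in APP and 134 and 133 CPM in WT (log2 fold change -0.48, adjusted p 0.0469), past the cut-off on p only. DESeq2 also called 1 of the 18, Npas4, in place of Arc. In both genes APP-3 was the lowest library, as it was for Dusp1, Dusp5, Dusp7 and Dusp8, while Dusp3, Dusp4, Dusp6 and Dusp14 were lowest in APP-4. All lists were compared on the same 4 libraries and share their control mice.

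**Figure D4:**
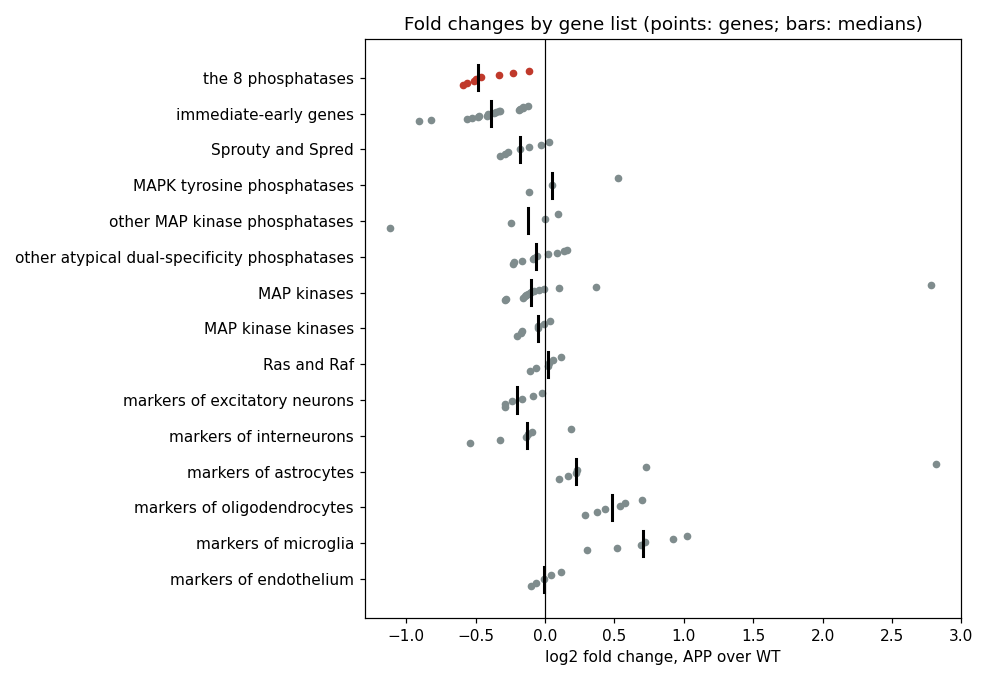
Log2 fold change of APP over WT for each gene (points) with the median of each list (bars), for the 8 phosphatases (red), the related lists and the cell type markers (grey). The phosphatases (median -0.48), the immediate-early genes (median -0.39) and the markers of excitatory neurons (median -0.20) lie wholly below 0. The microglial (0.71), oligodendrocyte (0.48) and astrocyte (0.23) markers lie above it.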

How the data were processed

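RNA from 4 cortices was depleted of ribosomal RNA, made into strand-specific libraries and sequenced in pairs. The authors discarded pairs matching ribosomal RNA, aligned the rest to Ensembl mouse transcripts with FANSe2 with mismatches allowed, and deposited whole-number counts per transcript, without normalization, for transcripts with at least 10 reads. The Ensembl release is not given in the sources used here. The submitters' processing notes also name CASAVA 1.8, edgeR and the human build hg19, which does not match mouse reads and was not used. A further 4 columns of values per library, and the authors' own columns of fold changes, mean levels, p-values and FDR, were not used.

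By identifier, 36858 of 37539 transcripts (98.2%) were matched to GENCODE M21 and summed per gene. The other 681 were kept as they were. Sums by identifier in place of names were used because the names vary in case. For the 7 phosphatases with a name in any case, both sums were equal. Counts were tested in R 4.3.3 with edgeR 4.0.16 (quasi-likelihood, TMM, no covariate, Benjamini-Hochberg adjustment over 18386 genes, common dispersion 0.00778), with cut-offs of 0.05 on the adjusted p and 1.5 on the fold change. DESeq2 1.42.0 was an alternative. CPM uses the TMM library sizes, and log2 values for likeness had a prior count of 2. Errors are SDs over 2 libraries, and the reads carry no molecular identifiers. Column numbers tied each WT library to 1 mouse. For APP they gave the group only. The tests were run on simulated counts of 18379 genes, drawn with the spread fitted to these data, so that spread itself was not checked. At an adjusted p under 0.05, the quasi-likelihood test found 95% of 2-fold and 86% of 1.5-fold changes planted in well-counted genes. It also passed 12 unchanged genes. DESeq2 found 91% and 70% and passed 3 unchanged genes, and the exact and likelihood ratio tests passed 17 and 21.

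The genes and lists were chosen with earlier results of these data known. The genes named are the 8 phosphatases, the list genes with an adjusted p under 0.05 or otherwise the 3 with the smallest p in each list, and the 3 genes nearest to each phosphatase. Dusp10, Dusp27 and Npas4 were added after their values were seen.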

Additional observations from a re-analysis of the deposited data

How the results depend on the processing

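No fold change of the 8 phosphatases changed direction with DESeq2, with the likelihood ratio or exact test of edgeR, without TMM, with at least 10 counts in every library, over transcripts, or without any 1 library. The number of phosphatases past both cut-offs was 1, became 2 with no fold cut-off and 0 over transcripts, and ran from 0 to 2 when a library was left out (2 without APP-3, 0 without WT-1 or WT-2). Dusp1 had a log2 fold change of -0.55 over transcripts, under the fold cut-off. With a library left out it ran from -0.65 to -0.54, Dusp4 from -0.72 to -0.41 and Dusp14 from -0.64 to -0.37. Keeping all libraries, the adjusted p of Dusp1 ran from 0.00069 to 0.0431 and that of Dusp6 from 6.24e-05 to 0.03, while without WT-1 or WT-2 that of Dusp6 was 0.154 or 0.0504. Over all genes 162 were called, against 354 by the exact test, 391 by the likelihood ratio test, 303 over transcripts and 134 to 601 with a library left out. Of the genes in the related lists 1 was called, against 3 by the exact test, 3 by the likelihood ratio test, 2 over transcripts and 0 to 6 with a library left out. The cause was not tested. No paired analysis was made, as the sources used here name no pairing of APP with WT mice. The APP columns are numbered 3 and 4, numbers that no label of an APP mouse carries. With 2 mice per group the tests rest on the spread shared between genes, which may be technical in part.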
